A study of Mus musculus with 20 samples.

Results

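The constitutive proteasome genes encode the subunits of the proteasome that most cells carry, its caps, its inhibitor and some of its assembly factors. They were taken as the probes of the array whose gene name starts with Psma, Psmb, Psmc, Psmd, Psme, Psmf or Psmg and a number, leaving out the interferon-induced genes Psmb8, Psmb9, Psmb10, Psme1 and Psme2, and whose mouse sample gave a signal well above background on 4 or more of the 20 arrays. By name 61 probes of 39 genes matched, and 55 probes of 38 genes passed, out of 41174 probes on the array and 15192 genes tested. The 6 probes that did not pass were the only probe of Psma8 (well above background on 1 array) and 1 probe each of Psma2 (0 arrays), Psmd11 (1 array) and Psmf1 (0 arrays) and 2 probes of Psme4 (0 and 1 array). One of the 38 genes, Psmc3ip, matched only by its letters and does not encode a proteasome protein. It was the dimmest, well above background on 7 arrays, 4 of day 0 and 3 of day 25, and on 0 arrays of days 10, 15 and 20. The probes that stand for the other 37 genes were well above background on all 20 arrays, except those of Psmd13 (18 arrays) and Psmd9 (19 arrays).

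The study followed blood of 4 female C57Bl/6 mice, numbered 305, 310, 315 and 320, around a subcutaneous inoculation of Hepa1-6 cells, a mouse hepatoma line. Each mouse was bled before the inoculation, which is day 0, and then on days 10, 15, 20 and 25 after it, so each day has 4 samples of the same animals. The labels give no age, and no mouse without tumour cells is among the samples of the later days. RNA of the mouse sample, labelled with Cy5, was hybridised beside 1 common reference, labelled with Cy3, from the blood of untreated female C57Bl/6. The labels call every sample blood with Hepa1-6 cells, those of day 0 included, while the protocol places the first bleed before the inoculation. All levels below are log2(Cy5/Cy3), so 0 is the level of the reference and 1 is a doubling, and a change is the difference between the means of 2 days on that scale.

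The proteasome degrades proteins that carry ubiquitin chains. Its barrel, the 20S core, stacks rings of alpha subunits around rings of beta subunits, and the proteolytic sites lie in the beta subunits Psmb5, Psmb6 and Psmb7. The 19S cap binds the ubiquitin chain, unfolds the protein with a ring of ATPases and feeds it into the core, while other caps (Psme3, Psme4) open the core without ubiquitin and Psmf1 inhibits it. In blood cells Psmb8, Psmb9 and Psmb10 can take the places of Psmb5, Psmb6 and Psmb7, and maturing reticulocytes use ubiquitin and the proteasome while they lose their organelles. Many subunit genes are known to be switched on together by Nfe2l1, which binds antioxidant response elements, and CCAAT boxes bound by NF-Y are frequent in their promoters.

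Promoter sequences of RefSeq (build GRCm38.p6) were at hand for 32 of the 38 genes. Their windows, 250 bases before and 50 after the start of transcription, were searched on both strands for TGACNNNGC, the core of the antioxidant response element, and for CCAAT, neither of which contains the other. The first was found for 6 of the 32 genes (18.8%) and for 14% of 27025 genes with such a window, and the second for 13 of 32 (40.6%) and for 41.1% of all genes. Of the 15 matched genes that differed among the days by the test below, 4 held TGACNNNGC and 8 held CCAAT, against 2 and 5 of the 17 that did not pass it. Shown are the 250 bases before the start of Psma7, Psmd4 and Psme3, each the member with the lowest or highest change on a day, and of the catalytic subunits Psmb5 and Psmb6. Capitals mark either motif on either strand, so that ATTGG is CCAAT on the opposite strand.
Psma7, chr2:180042465-180042714, minus strand: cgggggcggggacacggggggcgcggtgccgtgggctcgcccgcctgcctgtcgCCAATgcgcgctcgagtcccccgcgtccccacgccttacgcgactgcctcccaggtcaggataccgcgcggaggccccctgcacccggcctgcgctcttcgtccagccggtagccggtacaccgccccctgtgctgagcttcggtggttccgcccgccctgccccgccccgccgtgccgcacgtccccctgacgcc
Psmd4, chr3:95042615-95042864, minus strand: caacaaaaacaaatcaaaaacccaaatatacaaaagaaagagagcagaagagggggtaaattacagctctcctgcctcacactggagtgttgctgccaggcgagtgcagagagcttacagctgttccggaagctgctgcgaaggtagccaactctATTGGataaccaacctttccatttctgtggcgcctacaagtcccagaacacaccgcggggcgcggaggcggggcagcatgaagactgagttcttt
Psme3, chr11:101315963-101316212, plus strand: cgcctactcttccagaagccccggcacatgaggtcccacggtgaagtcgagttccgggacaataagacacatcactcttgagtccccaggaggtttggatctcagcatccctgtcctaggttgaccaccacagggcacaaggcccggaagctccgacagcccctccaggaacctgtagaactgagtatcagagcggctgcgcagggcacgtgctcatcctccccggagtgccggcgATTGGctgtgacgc
Psmb5, chr14:54617996-54618245, minus strand: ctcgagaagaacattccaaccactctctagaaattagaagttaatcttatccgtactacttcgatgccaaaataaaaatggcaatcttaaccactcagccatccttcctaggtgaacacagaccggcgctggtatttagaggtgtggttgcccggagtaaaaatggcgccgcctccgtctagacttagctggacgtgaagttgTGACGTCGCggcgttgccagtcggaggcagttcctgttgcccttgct
Psmb6, chr11:70525107-70525356, plus strand: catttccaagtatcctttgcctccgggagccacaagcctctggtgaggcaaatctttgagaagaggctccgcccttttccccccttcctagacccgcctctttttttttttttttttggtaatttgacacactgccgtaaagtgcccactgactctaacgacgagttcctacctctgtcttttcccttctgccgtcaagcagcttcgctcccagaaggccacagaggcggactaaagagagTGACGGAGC
The promoter of Psma7 held 1 CCAAT, whose first base lies 196 bases before the start. Psmd4 and Psme3 held theirs 95 and 14 bases before the start, with a total of 3 matches for Psmd4 in its whole window and 1 in the printed bases. Psmb5 and Psmb6 held TGACNNNGC, beginning 47 and 9 bases before the start, and no CCAAT. These are matches of letters, and binding was not measured.

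The arrays differed between days in more than the proteasome genes. Each day had a slide of its own, so day and slide cannot be told apart. The median signal above background in the Cy3 channel, which held the same reference throughout, was 103 to 141 on the day 0 arrays and 30.1 to 41.9 on the later ones, and that of Cy5 was 84.2 to 112 and 48.1 to 66.5. The day 0 array of mouse 320 stood apart. Its mean correlation was 0.410 with the other day 0 arrays and 0.610 with the day 10 arrays. The day 20 array of mouse 305 had a mean correlation of 0.410 with the others of its day, and those of the other mice had 0.619 to 0.653. The spike-in controls, RNA added in set amounts, also moved with the day. Their mean log2(Cy5/Cy3) per array was -0.93 to -0.25 on day 0, -0.50 to 0.17 on day 10 and -0.39 to -0.26 on day 15. It was -0.67 to -0.36 on day 20 and -1.45 to -0.85 on day 25. Blood cell markers were measured above background, 14 erythroid, 12 neutrophil, 8 B cell and 9 T cell genes among them, and of the hepatoma and liver markers 5 passed the filter. The mean of the 14 erythroid markers was -0.12 to 0.91 on day 0, 0.85 to 1.05 on day 10, 0.54 to 0.99 on day 15, 0.38 to 0.92 on day 20 and -0.65 to -0.13 on day 25. The mean of the 12 neutrophil markers was 0.47 to 0.94 on day 0 and between -0.41 and 0.42 on the later days. In whole blood, fewer cells of a type and less RNA per cell cannot be told apart.

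**Figure D1:**
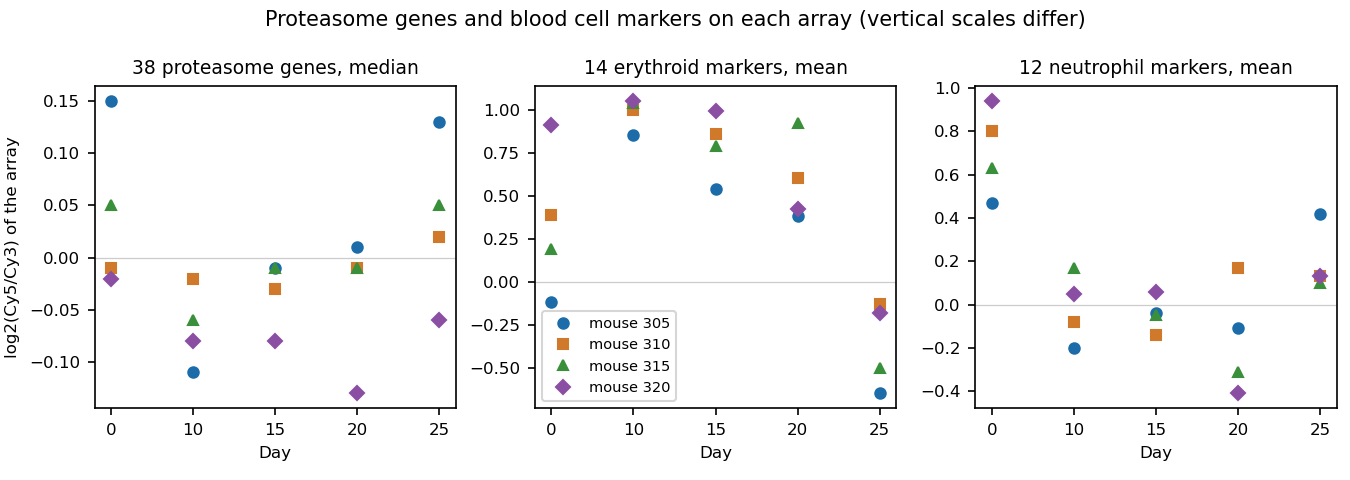
Median log2(Cy5/Cy3) of the 38 proteasome genes and mean log2(Cy5/Cy3) of 14 erythroid and 12 neutrophil marker genes (vertical axes, on different scales) on each array by day (horizontal axis), 1 symbol a mouse. Day 10 had proteasome medians of -0.11 to -0.02 and erythroid means of 0.85 to 1.05, and day 25 had -0.06 to 0.13 and -0.65 to -0.13.

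Across the 5 days, 19 of the 38 genes differed by the F test of limma over the 4 comparisons with day 0 (Benjamini-Hochberg adjusted p under 0.05), beside 31.0% of all 15192 genes. Of the 38 changes, 27 were below 0 on day 10 against day 0, beside 56.7% of all genes, and 28 were above 0 on day 25 against day 10, beside 56.9%. On day 10, 8 genes were lower and 2 higher than on day 0, beside 9.02% and 5.00% of all genes, and the median change was -0.14 for the 38 genes and -0.02 for all genes. With the scanner's own log ratio the medians were -0.14 and -0.15, and with all probes kept the difference between them was -0.04. On day 15, 4 were lower and 1 higher (5.11% and 2.59% of all genes), and on day 20 it was 1 each way (2.67% lower and 1.51% higher). On day 25 no member passed the limma test against day 0, beside 0.138% of all genes lower and 0.0395% higher. At an unadjusted p under 0.05 there were 7 members, and the share of all genes at that threshold was not counted. In day 25 against day 10, 15 rose and 6 fell, beside 19.7% and 14.8% of all genes, and the median change was 0.14 against 0.03 for all genes. In that comparison the 4 values of day 25 lay all above those of day 10 for 18 members (15.3% of all genes) and all below for 5 (12.3%). Against day 0, the values lay all above for 1 member and all below for 5 on day 10 (8.73% and 12.1% of all genes). On day 15 these were 2 and 2 (8.55% and 14.6%). No member's groups were apart on day 20 (2.70% and 6.47% of all genes) or on day 25 (2.07% and 3.82%). Psmc3ip, not a proteasome gene, is among the 18 members above and among the 5 all below on day 10. It is also among the 27 changes below 0 on day 10 and the 28 above 0 from day 10 to day 25. It passed the filter only through arrays of days 0 and 25, so its part in all of these counts is no support.

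The counts against day 0 rested on single arrays. Without the day 0 array of mouse 305, day 10 had 1 lower and 0 higher members, and without that of mouse 320 it had 12 and 3. It had 5 lower without mouse 315 on day 0 or any of mice 305, 315 and 320 on day 10, and 1 higher without mouse 310 on day 0 or mouse 315 or 320 on day 10. The day 15 count of lower members went from 0 (without mouse 305 on day 0, or mouse 320 on day 15) to 13 (without mouse 320 on day 0), and it was 1 without mouse 315 on day 0 or day 15. Fitted on the arrays of the 2 days alone, no member passed on days 10, 15 or 20 in limma. In the fit of all days, 3 were higher and 17 lower on day 10 at an unadjusted p under 0.05. The share of all genes at that threshold was not counted. With the mouse as a block, 9 members were lower and 2 higher on day 15, and 2 were lower on day 20. The lower members it added were Psma1, Psma6, Psmb1, Psmc6 and Psmd14 on day 15 and Psmd6 on day 20 (-0.22, adjusted p = 0.045 with the block), and Psmc1, Psmc2 and Psmd14 on day 10. It added Psmf1 on day 10 and Psme3 on day 15 to the higher members. Day 25 against day 10 kept 13 to 16 higher and 4 to 7 lower members whichever array was left out. Centring each array on its median in place of loess, which moved the median of all genes on day 10 to -0.47, put the member median at -1.25 with 31 lower and 0 higher. For day 25 against day 10 it gave 27 higher and 0 lower. Scaling the arrays to 1 spread left 2 higher and 2 lower in that comparison. The share of all genes called was not counted with an array left out, with the block or in these other fits. Whether their counts moved more for the members than for all genes was therefore not tested.

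**Figure D2:**
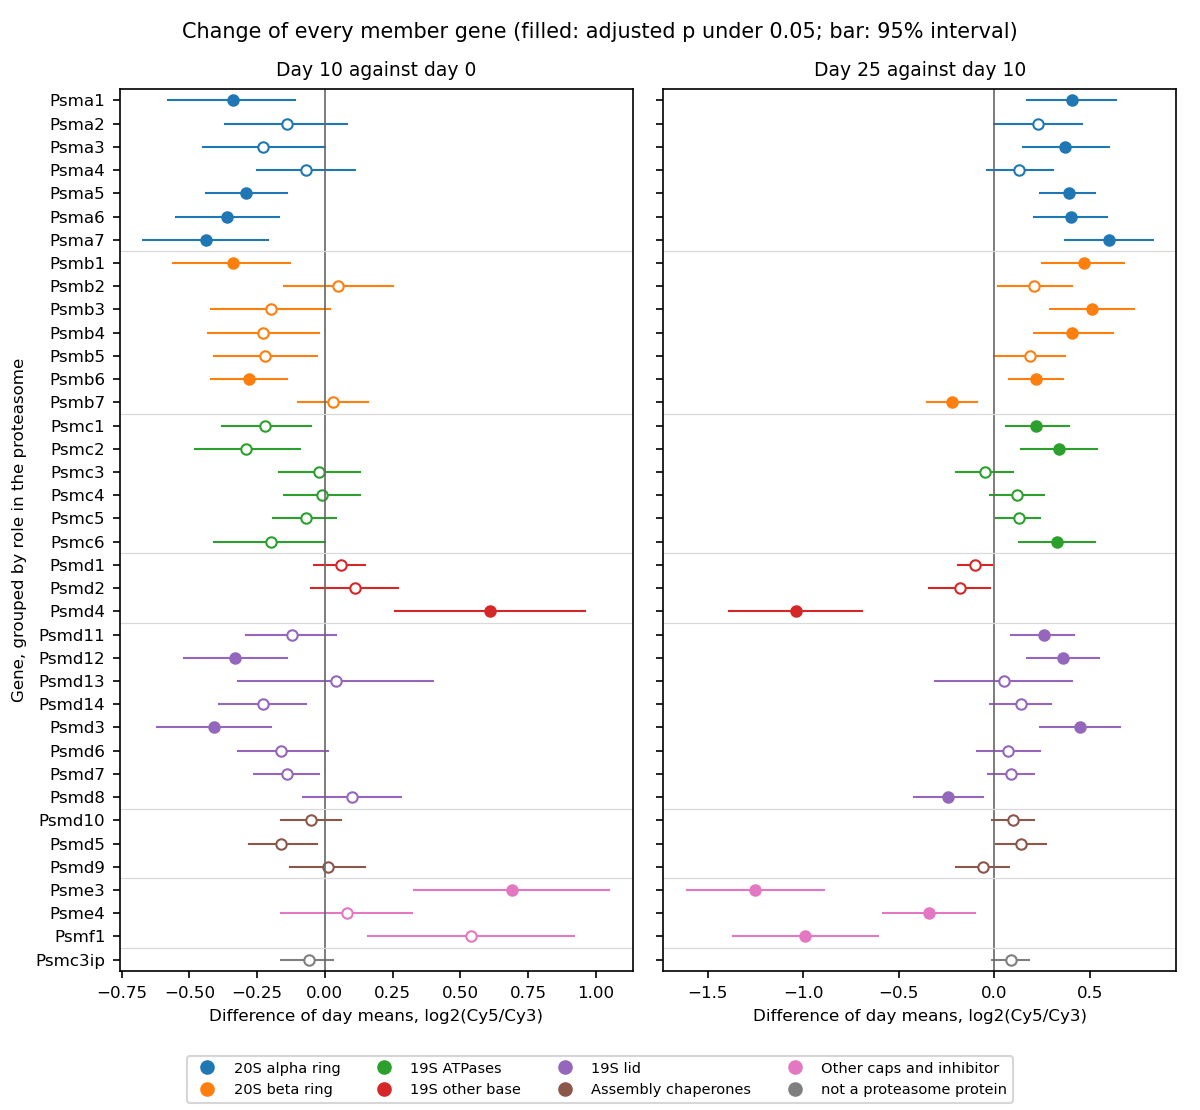
Change of each of the 38 genes, as a difference of day means of log2(Cy5/Cy3) (horizontal axis), for day 10 against day 0 and day 25 against day 10, with genes grouped by role (vertical axis), filled points past the threshold and bars for 95% intervals. The alpha ring lies left of 0 on day 10 and right of 0 on day 25, and Psmd4, Psme3 and Psmf1 lie on the opposite sides, a direction that array medians in place of loess turn for all 3 on day 10 and for Psmd4 and Psme3 on day 25.

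The alpha ring, which gates the entry to the core, had 1 sign of change on each day. All 7 alpha genes measured had a change below 0 on days 10, 15 and 20 and above 0 on day 25, each against day 0. Of all genes, 56.7%, 58.6% and 56.2% were below 0 on days 10, 15 and 20, and 49.7% above 0 on day 25. The alpha changes of day 25 were 0.04 to 0.16, and none passed. Single signs were not particular to this ring. All 7 beta genes were below 0 on days 15 and 20, and all 6 ATPase genes of the 19S cap on days 10 and 15. On day 10, 4 were lower (Psma1, Psma5, Psma6 and Psma7), beside 9.02% of all genes, and the median change of the ring was -0.29. From day 10 to day 25 the 7 changes ranged from 0.13 to 0.60 with a median of 0.39. Of these, 5 passed, beside 19.7% of all genes that rose. Values are given below in the order of the mice 305, 310, 315 and 320. Psma7, an alpha subunit, had levels of 0.31, 0.05, 0.17 and -0.33 on day 0, -0.43, -0.34, -0.43 and -0.35 on day 10, -0.20, -0.30, -0.39 and -0.50 on day 15, -0.19, -0.03, -0.19 and -0.32 on day 20 and 0.34, 0.28, 0.26 and -0.04 on day 25. Its day 10 values lay all below those of day 0, narrowly, since mouse 320 was already low on day 0. Its change was -0.44 (SE 0.11, 0.739-fold, limma adjusted p = 0.0145) on day 10 and -0.39 (adjusted p = 0.0329) on day 15, and it rose by 0.60 (1.51-fold, adjusted p = 0.000687) from day 10 to day 25, in 4 of 4 mice. Without mouse 305 on day 0, the day 10 change of -0.35 (adjusted p = 0.0676) did not pass. The day 15 call ended without any 1 of 6 arrays (mice 305, 310 and 315 on day 0 and 310, 315 and 320 on day 15).

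Psma5, another alpha subunit, stood at 0.20, 0.12, 0.32 and -0.01 on day 0, -0.31, -0.06, -0.07 and -0.08 on day 10, -0.03, -0.07, -0.12 and -0.20 on day 15, 0.05, 0.09, 0.10 and 0.12 on day 20 and 0.17, 0.39, 0.24 and 0.22 on day 25. The groups of days 10 and 15 did not overlap with day 0, and day 25 lay above day 10 in all 4 mice. The changes were -0.29 (SE 0.07, adjusted p = 0.0118) on day 10, -0.26 (adjusted p = 0.0253) on day 15 and 0.39 (adjusted p = 0.000635) from day 10 to day 25. No single array ended the day 10 call, but the scanner's log ratio (-0.17, adjusted p = 0.0896) and scaling between arrays (-0.41, adjusted p = 0.50) did, as they did on day 15 (-0.09, adjusted p = 0.321, and -0.62, adjusted p = 0.253). Any 1 of 4 arrays ended the call of day 15 (mice 305 and 315 on day 0 and 315 and 320 on day 15). Psma6, also of the alpha ring, had levels of 0.51, 0.14, 0.22 and -0.02 on day 0, -0.14, -0.06, -0.12 and -0.27 on day 10, -0.02, -0.06, -0.05 and -0.13 on day 15, 0.10, 0.12, 0.09 and -0.06 on day 20 and 0.44, 0.11, 0.32 and 0.16 on day 25. Each mouse was lower on days 10, 15 and 20 than on day 0. The change was -0.36 (SE 0.09, adjusted p = 0.0141) on day 10, a call that ended without mouse 305 on day 0 (-0.26) or mouse 320 on day 10 (-0.32), and 0.40 (adjusted p = 0.00277) from day 10 to day 25. On day 15 it was -0.28 (adjusted p = 0.072), and with the mouse as a block the adjusted p was 0.0182. Psma1 changed by -0.34 on day 10 (adjusted p = 0.0453), a call that 14 arrays each ended when left out (highest adjusted p 0.164), and 0.41 from day 10 to day 25 (adjusted p = 0.00932). On day 15 it was -0.36, which passed with the mouse as a block (adjusted p = 0.0289), while Psma2 and Psma4 passed in none of these comparisons, and Psma3 passed only in the last (0.37, adjusted p = 0.0133).

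The beta ring, which carries the proteolytic sites, had a median change of -0.22 on day 10. Of its 7 genes, 2 were lower on day 10 (Psmb1 and Psmb6) and 1 on day 15 (Psmb4), beside 9.02% and 5.11% of all genes. From day 10 to day 25 4 rose (Psmb1, Psmb3, Psmb4 and Psmb6) and 1 fell (Psmb7), beside 19.7% and 14.8%. Psmb1, a structural beta subunit, stood at 0.29, -0.04, 0.18 and -0.25 on day 0, -0.36, -0.19, -0.25 and -0.39 on day 10, -0.11, -0.25, -0.16 and -0.41 on day 15, -0.04, -0.12, -0.16 and -0.21 on day 20 and 0.40, 0.19, 0.05 and 0.03 on day 25. Each mouse was lower on days 10 and 15 than on day 0, although the groups overlapped through mouse 320. The change was -0.34 (SE 0.10, adjusted p = 0.0345) on day 10, a call that ended without any 1 of 5 arrays (mice 305 and 315 on day 0 and 305, 315 and 320 on day 10), and 0.47 (adjusted p = 0.00254) from day 10 to day 25. On day 15 it was -0.27 (adjusted p = 0.131, and 0.0335 with the mouse as a block).

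Psmb4, another structural beta subunit, had levels of 0.54, 0.38, 0.59 and 0.13 on day 0, 0.06, 0.18, 0.16 and 0.33 on day 10, 0.12, 0.16, -0.01 and -0.14 on day 15, 0.26, 0.37, 0.24 and 0.17 on day 20 and 0.77, 0.66, 0.57 and 0.38 on day 25. All 20 values but 2 lay above the reference, and both exceptions were on day 15. The change was -0.37 (SE 0.098, adjusted p = 0.023) on day 15, which ended without any 1 of 4 arrays (mice 305 and 315 on day 0 and 315 and 320 on day 15), and 0.41 (adjusted p = 0.0041) from day 10 to day 25. The day 15 call also ended with the scanner's log ratio (-0.15, adjusted p = 0.195), with negative control spots as background (-0.24, adjusted p = 0.0516) and with scaling between arrays (-0.49, adjusted p = 0.608). Psmb3, a structural beta subunit as well, stood at 0.25, 0.19, 0.26 and -0.26 on day 0, -0.11, -0.05, -0.04 and -0.16 on day 10, 0.11, 0.01, -0.29 and -0.11 on day 15, 0.05, 0.13, 0.13 and 0.01 on day 20 and 0.61, 0.51, 0.34 and 0.22 on day 25. Its day 25 values lay above every day 10 value. It rose by 0.51 (SE 0.11, 1.42-fold, adjusted p = 0.00174) from day 10 to day 25 and had the highest change of all members on day 25 against day 0, 0.31 (adjusted p = 0.152), which did not pass. A further Psmb3 probe gave 0.12 (adjusted p = 0.579) from day 10 to day 25.

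Of the 3 catalytic subunits, Psmb6 was lower on day 10, and Psmb5 and Psmb7 did not pass against day 0. Psmb5, of the chymotrypsin-like site, stood at 0.04, -0.32, -0.01 and -0.23 on day 0, -0.50, -0.27, -0.25 and -0.37 on day 10, -0.08, -0.22, -0.10 and -0.33 on day 15, -0.09, -0.25, -0.36 and -0.42 on day 20 and -0.12, -0.05, -0.21 and -0.26 on day 25. The days overlapped throughout. Its change on day 10 was -0.22 (95% interval -0.41 to -0.03, adjusted p = 0.108) and from day 10 to day 25 it was 0.19 (adjusted p = 0.111). Psmb6, of the caspase-like site, had levels of 0.28, 0.06, 0.19 and -0.08 on day 0, -0.29, -0.02, -0.13 and -0.19 on day 10, -0.01, 0.03, -0.01 and -0.10 on day 15, -0.05, -0.04, -0.11 and -0.07 on day 20 and 0.11, 0.03, 0.07 and 0.03 on day 25. Each mouse was lower on day 10 than before inoculation, by -0.28 on average (SE 0.067, adjusted p = 0.0117), and without mouse 305 on day 0 the change was -0.22 (adjusted p = 0.0551). Psmb6 rose by 0.22 (adjusted p = 0.0177) from day 10 to day 25, a call that ended without mouse 305 on day 10 (0.17). Psmb7, of the trypsin-like site, stood at 0.04, -0.07, 0.00 and 0.06 on day 0, 0.03, -0.02, 0.16 and -0.01 on day 10, -0.01, -0.06, 0.01 and -0.04 on day 15, -0.04, -0.29, -0.23 and -0.19 on day 20 and -0.24, -0.03, -0.18 and -0.28 on day 25. On each of days 20 and 25, 3 of 4 mice lay below every value of days 0, 10 and 15, and day 25 lay below day 10 in 4 of 4 mice. On day 20 the change of -0.19 against day 0 did not pass, though without mouse 305 on day 20 it did (-0.24, adjusted p = 0.0127). The change from day 10 to day 25 was -0.22 (SE 0.062, adjusted p = 0.0103), and with array medians in place of loess it was 0.60 (adjusted p = 0.0538). Probes for sequences named as similar to beta 3 and beta 7 are also on the array, so the values of Psmb3 and Psmb7 may include near-identical copies and are uncertain.

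**Figure D3:**
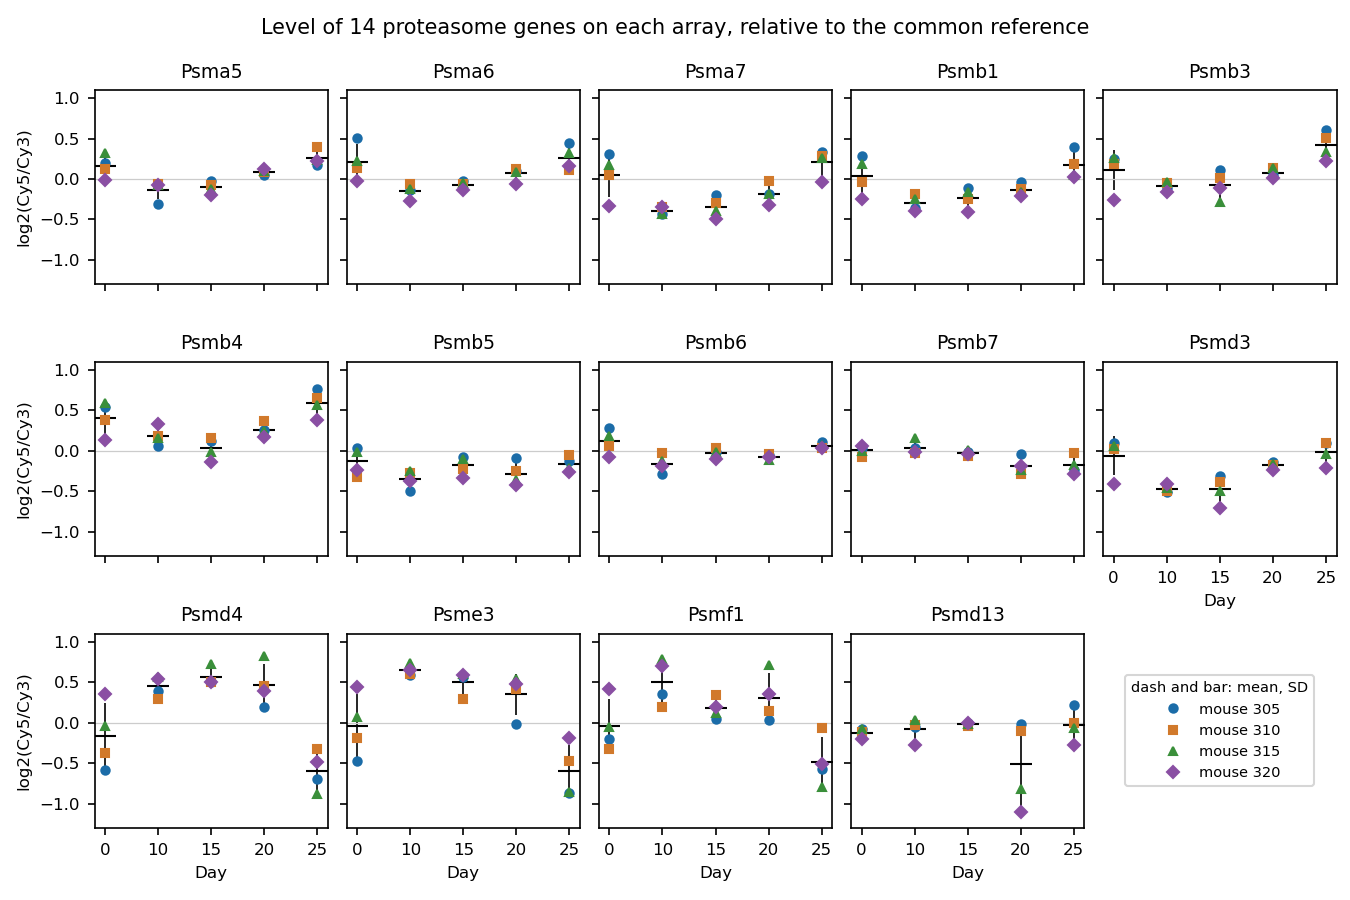
Level of 14 proteasome genes as log2(Cy5/Cy3) (vertical axis, the same in all panels) by day (horizontal axis), with 1 symbol a mouse and dashes and bars for the mean and SD of 4 arrays. Psma7 averaged -0.39 on day 10 and 0.21 on day 25, while Psme3 averaged 0.65 and -0.60, an order that array medians in place of loess leave at 0.03 for Psme3.

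In the 19S cap the 6 ATPase genes, Psmc1 to Psmc6, had changes between -0.29 and -0.01 on day 10 and none passed against day 0 on any day. With the mouse as a block Psmc1 (-0.22, adjusted p = 0.0331) and Psmc2 (-0.29, adjusted p = 0.0151) passed on day 10 and Psmc6 (-0.25, adjusted p = 0.0339) on day 15, and the Cy5 channel alone turned Psmc1 to 0.34 on day 10. From day 10 to day 25 3 of them rose, beside 19.7% of all genes: Psmc1 (0.22, adjusted p = 0.0326), Psmc2 (0.34, adjusted p = 0.0103) and Psmc6 (0.33, adjusted p = 0.0142). That of Psmc1 ended without any 1 of 5 arrays (mice 305, 315 and 320 on day 10 and 305 and 310 on day 25) and that of Psmc6 without mouse 305 on day 25 (adjusted p = 0.0509). In the Cy5 channel alone Psmc1 gave -0.04 (adjusted p = 0.633) there. A further Psmc2 probe, well above background on 11 arrays, gave -0.04 there (adjusted p = 0.626). The other Psmc6 probe, well above background on 20 arrays, gave 0.12 from day 10 to day 25 (adjusted p = 0.160 in the fit of all probes). Of the lid, which holds the deubiquitinase Psmd14, 2 of 8 genes were lower on day 10 (Psmd3 and Psmd12), beside 9.02% of all genes. On day 20 1 was lower (Psmd14, -0.29, SE 0.077, adjusted p = 0.0425), beside 2.67%. The Psmd14 call ended without any 1 of 9 arrays (mice 305, 310 and 315 on day 0, 315 on day 10, 305 and 315 on day 15, and 310, 315 and 320 on day 20), with adjusted p up to 0.144. Its other probe, well above background on 20 arrays, gave -0.10 on day 20 (adjusted p = 0.484 in the fit of all probes), and the scanner's log ratio gave -0.16 (adjusted p = 0.308). With the mouse as a block Psmd14 also passed on day 10 (-0.23, adjusted p = 0.0473) and day 15 (-0.25, adjusted p = 0.0483). From day 10 to day 25 3 rose (Psmd3, Psmd11 and Psmd12) and 1 fell (Psmd8), beside 19.7% and 14.8% of all genes. The change of Psmd8 there was -0.24 (adjusted p = 0.0366), a call that 5 arrays each ended when left out (highest adjusted p 0.115). Array medians in place of loess turned it to 0.77. A further Psmd14 probe rose by 0.31 (adjusted p = 0.00772) there, while the one that stands for the gene gave 0.14.

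Psmd3, a scaffold subunit of the lid, had levels of 0.10, 0.02, 0.06 and -0.41 on day 0, -0.51, -0.49, -0.46 and -0.41 on day 10, -0.31, -0.38, -0.50 and -0.70 on day 15, -0.14, -0.18, -0.16 and -0.24 on day 20 and 0.10, 0.10, -0.04 and -0.21 on day 25. The day 0 value of mouse 320 lay far below those of the other mice and touched the day 10 range. The change was -0.41 on day 10 (SE 0.10, 0.752-fold, adjusted p = 0.0119) and -0.41 on day 15 (adjusted p = 0.0141), the lowest of all members that day. It rose by 0.45 (adjusted p = 0.00244) from day 10 to day 25. Without mouse 305 on day 0 the changes of days 10 and 15 were each -0.36 (adjusted p = 0.0546 and 0.0619), and without mouse 320 on day 15 that day's was -0.34 (adjusted p = 0.0665). Psmd12 changed by -0.33 on day 10 (SE 0.091, adjusted p = 0.0223), but its other 2 probes both gave 0.02, and the call ended without any 1 of 4 arrays (mice 305 and 315 on days 0 and 10). From day 10 to day 25 its 3 probes gave 0.36, 0.24 and -0.04, and the first 2 passed. Psmd7 did not pass, although 1 of its 2 other probes did from day 10 to day 25 (0.14, adjusted p = 0.042), while the remaining one gave -0.01.

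Psmd13, another lid subunit and one of the dimmer members, stood at -0.08, -0.11, -0.08 and -0.20 on day 0, -0.05, -0.03, 0.04 and -0.28 on day 10, 0.00, -0.04, -0.01 and 0.00 on day 15, -0.02, -0.10, -0.82 and -1.10 on day 20 and 0.22, 0.00, -0.07 and -0.27 on day 25. Mice 315 and 320 were far below the others on day 20, which gave the lowest change of all members that day, -0.39 (SE 0.17, adjusted p = 0.167). It did not pass, and without mouse 305 on day 20 it was -0.56 (adjusted p = 0.0246). The assembly chaperones of the 19S base, Psmd5, Psmd9 and Psmd10, passed in no comparison, with changes from -0.16 to 0.14 over the 5 comparisons.

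Psmd4, a receptor for ubiquitin chains in the base of the cap, was higher on days 10, 15 and 20, a direction that array medians in place of loess turned. Its levels were -0.58, -0.37, -0.04 and 0.35 on day 0, 0.39, 0.29, 0.56 and 0.54 on day 10, 0.51, 0.51, 0.73 and 0.50 on day 15, 0.20, 0.45, 0.83 and 0.39 on day 20 and -0.69, -0.32, -0.88 and -0.49 on day 25. On day 0 the 4 mice were spread from -0.58 to 0.35, and all 4 were higher on each of days 10, 15 and 20. The change was 0.61 on day 10 (SE 0.17, 1.53-fold, adjusted p = 0.021), 0.73 on day 15 (1.65-fold, adjusted p = 0.0104) and 0.63 on day 20 (adjusted p = 0.0399), the highest of all members on days 15 and 20. With array medians in place of loess these were -0.91, -0.69 and -0.27. From day 10 to day 25 it fell by 1.04 (0.486-fold, adjusted p = 0.00026), which array medians turned to 0.23. The call of day 10 ended without any 1 of 4 arrays (mice 305 and 310 on day 0 and 315 and 320 on day 10), the lowest change being 0.47 without mouse 305 on day 0. The day 20 call ended without any 1 of 9 arrays. They were those of mice 305, 310 and 315 on day 0, mouse 305 on day 10, mice 305 and 320 on day 15 and mice 310, 315 and 320 on day 20. The other Psmd4 probe, well above background on 19 arrays, moved by -0.03 to 0.03 in the 5 comparisons. The remaining base subunits Psmd1 and Psmd2 did not pass. The other Psmd2 probe, well above background on 20 arrays, did from day 10 to day 25 (-0.22, adjusted p = 0.0169 in the fit of all probes). The probe that stands for Psmd2 gave -0.18 there, and on day 20 the 2 probes gave 0.04 and -0.03.

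The caps other than 19S and the inhibitor, 3 genes, all fell from day 10 to day 25, and 1 was higher on day 10, beside 14.8% and 5.00% of all genes. With array medians in place of loess, however, none of them passed in these directions. Psme3, a nuclear cap that opens the core without ubiquitin, had levels of -0.47, -0.19, 0.07 and 0.44 on day 0, 0.59, 0.60, 0.74 and 0.65 on day 10, 0.57, 0.29, 0.60 and 0.59 on day 15, -0.02, 0.42, 0.54 and 0.48 on day 20 and -0.87, -0.47, -0.86 and -0.19 on day 25. All day 10 values lay above all of day 0, and all of day 25 below all of day 10. The change was 0.69 on day 10 (SE 0.17, 1.61-fold, adjusted p = 0.0141), the highest of all members, and -1.25 from day 10 to day 25 (0.421-fold, adjusted p = 9.98e-05), the widest change of any member there. Array medians in place of loess gave -0.76 and 0.03. Without mouse 305 on day 0 the day 10 change was 0.54 (adjusted p = 0.065). On day 15 it was 0.55 (adjusted p = 0.0583, and 0.0185 with the mouse as a block). On day 25 against day 0 it was -0.56, the lowest of all members, and did not pass (adjusted p = 0.129), though it did without mouse 305 on day 0 (-0.70, adjusted p = 0.0483).

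Psmf1, the inhibitor, stood at -0.20, -0.32, -0.05 and 0.42 on day 0, 0.35, 0.19, 0.79 and 0.70 on day 10, 0.05, 0.34, 0.12 and 0.20 on day 15, 0.03, 0.14, 0.71 and 0.35 on day 20 and -0.57, -0.06, -0.79 and -0.51 on day 25. Each mouse was higher on day 10 than on day 0, and day 25 lay below day 10 in all 4. The day 10 change was 0.54 (SE 0.18, adjusted p = 0.0526, and 0.0421 with the mouse as a block), which array medians in place of loess turned to -0.31. From day 10 to day 25 it was -0.99 (0.503-fold, adjusted p = 0.000669), which array medians in place of loess left at -0.18 (adjusted p = 0.654). A further Psmf1 probe on all 20 arrays above background gave 0.06 and -0.03 in these 2 comparisons. Psme4, a large cap protein, changed by 0.08 on day 10 (adjusted p = 0.674) and fell by 0.34 from day 10 to day 25 (adjusted p = 0.0288), where array medians gave 0.89 and any 1 of 4 arrays ended the call (mice 310 and 315 on day 10 and 315 and 320 on day 25). Beside these genes, 14 of 14 erythroid markers fell from day 10 to day 25 (median change -1.4) and 4 rose on day 10 (median 0.65). Of all genes 14.8% and 5.00% did so. Of 8 dividing cell markers 5 fell from day 10 to day 25 and 3 rose on day 10, and of 8 platelet markers 3 and 2. The spike-in mean went from -0.10 on day 10 to -1.17 on day 25, after -0.64 on day 0. These were the directions of Psmd4, Psme3 and Psmf1. The part of the markers and of the spike-in shift in these values was not tested. Of the 12 neutrophil markers 8 were lower on day 10 and 2 rose from day 10 to day 25, beside 9.02% and 19.7% of all genes. In the latter comparison 4 of 9 T cell, 3 of 8 B cell and 2 of 8 monocyte markers rose, and 0 of these fell.

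Because the ratio rests on both dyes, each channel was also taken alone, after quantile normalization between arrays. For Psma7 the Cy5 channel, the mouse sample, gave -0.80 on day 10 (adjusted p = 0.00122) and the Cy3 channel, the reference, gave -0.33 (adjusted p = 0.00154). Psmd3 gave -0.60 in Cy5 (adjusted p = 0.00654) and -0.19 in Cy3 (adjusted p = 0.0945). For Psmd4 both channels lay below 0 on day 10, by -0.24 in Cy5 (adjusted p = 0.383), which did not pass, and -0.60 in Cy3 (adjusted p = 0.000206). The channels were normalized apart and do not add up to the change of 0.61 in the ratio. The part of the reference signal in that change was not tested. The Cy5 channel of Psmd4 fell by 0.59 (adjusted p = 0.0228) from day 10 to day 25. Psme3 gave 0.53 in Cy5 (adjusted p = 0.0562) and -0.02 in Cy3 (adjusted p = 0.904) on day 10, and Psmf1 gave 0.51 (adjusted p = 0.012) and -0.02 (adjusted p = 0.691). On days 15 and 20 the reference channel of Psme3 was higher too, by 0.37 (adjusted p = 0.00809) and 0.46 (adjusted p = 0.00146). In Cy3 alone, a channel labelled as the same RNA, 9 members were lower and 6 higher on day 10 than on day 0, beside 18.9% and 20.7% of all genes.

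**Figure D4:**
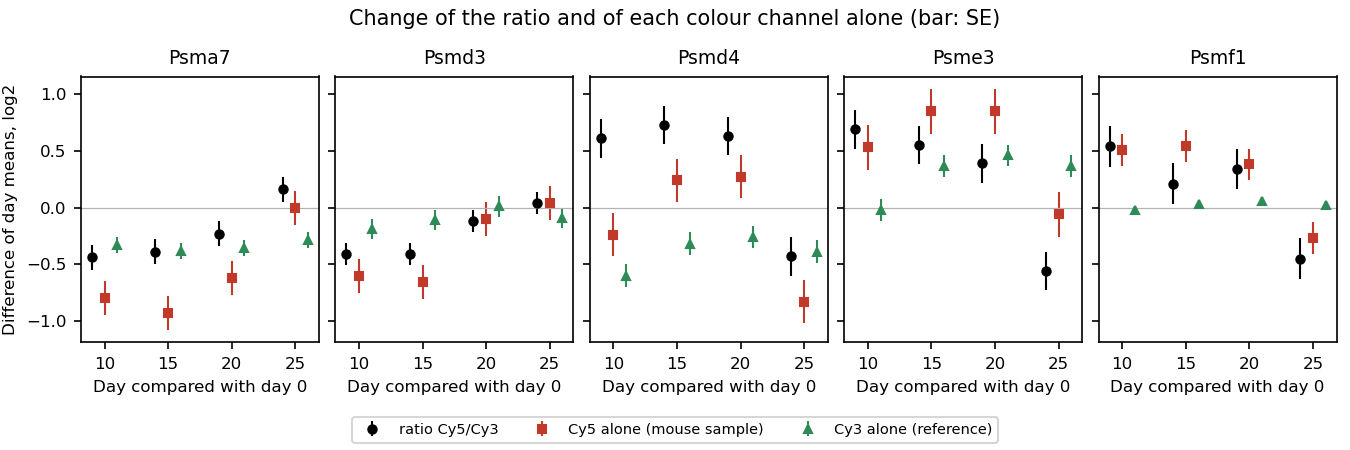
Change against day 0 (vertical axis, log2 difference of day means, bars SE) on each later day (horizontal axis) for the ratio and for each colour channel alone, for 5 genes. Psma7 and Psmd3 lie below 0 on day 10 in all 3, Psme3 and Psmf1 are near 0 in Cy3 (-0.02 each), and Psmd4 is above 0 on day 10 in the ratio (0.61) with both channels below 0.

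The level of each immunosubunit relative to the subunit it replaces was taken as the difference between the 2 genes on each array, in which a shift common to all genes of an array cancels. Psmb8 minus Psmb5 averaged 0.24 ± 0.25 (SD, n = 4) on day 0, 0.06 ± 0.11 on day 10, -0.09 ± 0.04 on day 15, 0.31 ± 0.10 on day 20 and 0.44 ± 0.15 on day 25. Psmb9 minus Psmb6 was 0.76, 0.43, 0.35 and 0.19 in the 4 mice on day 0 and 0.08, 0.13, -0.06 and -0.04 on day 15. These values do not overlap, a change of -0.40 with an exact permutation p = 0.0286, the smallest that 4 against 4 allows, and an adjusted p = 0.343 over the 12 tests. Psmb10 minus Psmb7 averaged -0.11 ± 0.43 on day 0, -0.64 ± 0.06 on day 10, -0.46 ± 0.22 on day 15, -0.10 ± 0.15 on day 20 and 0.21 ± 0.13 on day 25. None of the 12 exact permutation tests against day 0 (two-sided) passed after adjustment, with adjusted p from 0.343 to 0.971, and only the one named had an unadjusted p under 0.05. A lone test at the smallest p of 0.0286 cannot pass after adjustment over 12 tests, so these tests cannot show that a difference was absent. They did not pair the samples of a mouse. By themselves, Psmb9 (-0.45, adjusted p = 0.0265), Psmb10 (-0.50, adjusted p = 0.0345) and Psme2 (-0.39, adjusted p = 0.0178, from 3 day 0 arrays) were lower on day 10 in the limma fit. These calls ended without any 1 of 5, 7 and 3 arrays, in that order. On day 15 Psmb9 (-0.54, adjusted p = 0.012) and Psme1 (-0.33, adjusted p = 0.0102) were lower. With the mouse as a block Psmb8 also passed on days 10 and 15 (-0.40, adjusted p = 0.0255, and -0.38, adjusted p = 0.0464), and Psmb10 on day 15 (-0.38, adjusted p = 0.0424). Psmb8 (0.57), Psmb10 (0.63) and Psme2 (0.66) rose from day 10 to day 25.

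**Figure D5:**
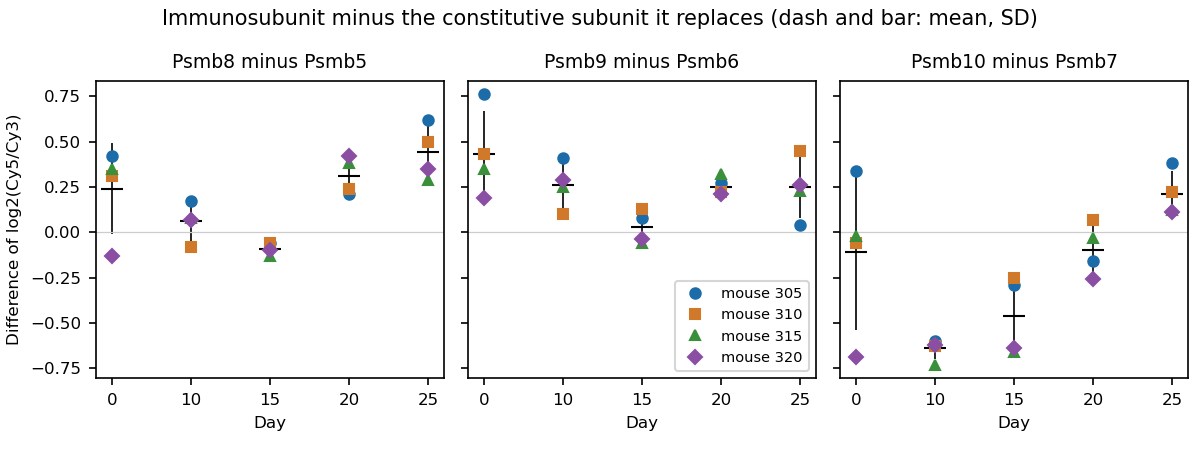
Difference of log2(Cy5/Cy3) between an immunosubunit and the constitutive subunit it replaces (vertical axis) on each array by day (horizontal axis), 1 symbol a mouse, dashes and bars for the mean and SD of 4 arrays. The day 0 values of Psmb10 minus Psmb7 spread from -0.69 to 0.34, and those of day 10 lie between -0.73 and -0.60.

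Of the other genes of the pathway 31 were measured, and 17 differed among the 5 days by the F test (31.0% of all genes). On day 10, 9 were lower and 3 higher (9.02% and 5.00% of all genes), on day 15 4 and 3 (5.11% and 2.59%) and on day 20 5 and 1 (2.67% and 1.51%). On day 25 there were 1 and 0 (0.138% and 0.0395%), while from day 10 to day 25 11 rose and 7 fell (19.7% and 14.8%). The calls on day 25 ran from 0 to 5 as each array was left out. Rps27a, a ubiquitin fused to a ribosomal protein, changed by -0.59 (SE 0.12, adjusted p = 0.00488) on day 10, -0.88 on day 15, -0.72 on day 20 and 0.61 from day 10 to day 25. Ubb, which encodes ubiquitin repeats, passed only from day 10 to day 25, with -1.25 (SE 0.21, adjusted p = 0.000392), and array medians in place of loess gave -0.13 there.

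Pomp, the chaperone that matures the core, changed by -0.34 (SE 0.10, adjusted p = 0.0313) on day 10 and -0.40 (adjusted p = 0.0188) on day 15, calls that ended without any 1 of 6 and 3 arrays, and 0.48 (adjusted p = 0.00194) from day 10 to day 25. Txnl1, a thioredoxin-like protein of the 19S cap, was lowest on day 20, at -0.43 (adjusted p = 0.0057) against day 0, after -0.34 on day 15, and no single array ended either call. Its calls of day 10 (-0.24, SE 0.076, adjusted p = 0.045) and of day 25 (-0.39, adjusted p = 0.044), the only one of the pathway on day 25, each ended without any 1 of 14 arrays, with adjusted p up to 0.148 and 0.181. That of day 25 also ended with array medians in place of loess (adjusted p = 1), scaling between arrays (0.333), the Cy5 channel alone (0.0804), no filter on dim probes (0.0663) and only the days compared (0.26). Nfe2l2, a factor that binds antioxidant response elements, changed by -0.24 (SE 0.075, adjusted p = 0.0377), -0.40 and -0.39 on days 10, 15 and 20, the first of which ended without any 1 of 5 arrays. Nfe2l1 did not pass against day 0 on any day and rose by 0.29 (adjusted p = 0.0181) from day 10 to day 25.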

How the data were processed

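Blood RNA of 4 mice on 5 days was measured on 20 arrays of 45018 spots. The deposited intensity values are the scanner's signals in both colours, made with Agilent Feature Extraction 9.1.3.1 per the submitters' processing notes. The deposited log10 ratio of Cy5 over Cy3 was detrended spatially and dye-normalized (linear, then lowess) per the file headers. It equals the deposited value matrix in 900360 of 900360 values (within 1e-6), which fixes the matrix's scale and direction. It served as an alternative.

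From the mean and background intensities, log2(Cy5/Cy3) was computed in R 4.3.3 with limma 3.58.1 and the package data.table (version 1.17.8): normexp background correction (offset 50), loess within arrays with controls at weight 0, and removal of 9 to 214 non-uniform spots per array. Spots of a probe were averaged. Probes well above background in Cy5 on at least 4 of 20 arrays with values on 3 or more arrays a day were kept (20957 of 41174), and the brightest stood for its gene, 4341 genes having several. Names were updated from RefSeq by accession for 23374 probes, by symbol for 6733 and by synonym for 2919, and 8148 kept the file's name.

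Days were compared with lmFit and eBayes on all 20 arrays without a block (two-sided, Benjamini-Hochberg over 15192 genes, threshold 0.05). Scripts were tested on simulated data. Same-numbered samples are the same animals. The deviations of a mouse's arrays from the day means had a mean correlation of 0.0872 over 40 pairs (21 above 0.1). Over 120 pairs of different mice it was -0.0296 (28 above 0.1). A gene's deviations within a day sum to 0, which largely ties the second mean to the first. Their difference is therefore no independent measure of the pairing. The fit with the mouse as a block is given where it changes a call. Exchange of subunits was tested with exact permutation tests. The members, gene lists (roles, pathway, markers) and tests were chosen with earlier results of these data known. Values on every array are given for Psmb5, Psmb6, Psmb7 and the 10 members with the smallest F test p. Also named are the highest and lowest member of each comparison with day 0, members whose probes disagree in sign, and the 8 pathway genes with the smallest F test p, of which some are not reported here. Psmd13 on every array, Nfe2l1 and other genes that make up small counts were added after their values were seen. Alternatives covered background, normalization, each channel alone, filters, all probes, the block, the days fitted and each array left out. Array number limits the precision.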

Additional observations from a re-analysis of the deposited data

Results flagged for a closer look

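In 7 of 90 groups of 4 arrays, the lowest or highest value lay apart from the other values by more of the group's range than Dixon's 95% limit, which chance gives in about 1 in 20 groups. On day 0 mouse 320 was low for Psmd3 at -0.41 and for Psmb3 at -0.26. On day 10 mouse 305 was low for Psma5 at -0.31. On day 15 mouse 315 was high for Psmd4 at 0.73, and mouse 310 was low for Psme3 at 0.29. On day 20 mouse 320 was low for Psma6 at -0.06 and for the median of all 38 genes at -0.13.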

How the results depend on the processing

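The setting of the normalization moved the counts most. Shares of all genes called were counted only in the main fit and in the Cy3 channel alone, so the counts below have none beside them. With array medians in place of loess, day 10 had 0 higher and 31 lower members and 21 pathway calls, days 15 and 20 had 0, 0 and 0, and day 25 had 0 pathway calls. Day 25 against day 10 then had 27 higher and 0 lower. The member median minus that of all genes became -0.78, -0.69, -0.53 and -0.04 on days 10, 15, 20 and 25 and 0.65 from day 10 to day 25, and the member median of day 25 became -0.05. Psmd4 turned to -0.91, -0.69 and -0.27 on days 10, 15 and 20 and 0.23 from day 10 to day 25, Psme3 to -0.76 on day 10 and 0.03 from day 10 to day 25, and Psmb7 to -0.73 and 0.60. On day 10 Psmd1, Psmd2, Psmd8 and Psme4 turned to -0.41, -1.19, -1.0 and -1.35, and from day 10 to day 25 Psmc3, Psmd8 and Psme4 to 0.96, 0.77 and 0.89. With the scanner's log ratio, day 10 had 4 higher and 4 lower and a median difference of 0.01, day 15 had 5, 9 and 17 pathway calls, day 20 had 0 higher, and day 25 had 3 pathway calls and a median difference of 0.13. Scaling between arrays gave 1 higher, 5 lower and 4 pathway calls on day 10, 4, 14 and 14 on day 15, 0 higher and 1 pathway call on day 20, 2 pathway calls on day 25, and 2, 2 and 5 from day 10 to day 25. The Cy5 channel alone gave 29 members by the F test, 4 higher and 17 lower on day 10 with Psmd4 at -0.24 and Psmc1 at 0.34 (0.20 on day 20 and -0.04 from day 10 to day 25), then 3, 15 and 14 pathway calls with a median difference of -0.13 on day 15, 2, 7 and 11 on day 20 and 1, 1 and 4 on day 25. Without background correction the F test called 29, with 15 lower on day 10, 5, 15 and 15 on day 15, 5 lower and 10 pathway calls on day 20 and 2, 2 and 4 on day 25. With negative control spots as background there were 4 higher on day 10, 5, 12 and 15 on day 15, 3 lower and 10 pathway calls on day 20 and 1, 4 and 4 on day 25. The cause of these shifts was not tested. No filter on dim probes gave 0 and 0 on day 20 and 0 pathway calls on day 25, probes above background on all 20 arrays gave 2 higher on day 15, and all probes kept gave a median difference of -0.04 on day 10. Fitting the arrays of the days compared alone, which leaves fewer samples for the spread, gave 0 and 0 members on days 10, 15 and 20, with 6 and 2 pathway calls on days 10 and 20 and 0 on day 25. With the mouse as a replicate block, day 15 had 2 higher and 9 lower and day 20 had 2 lower, and the calls it changed among the genes named are those given above for Psmf1, Psme3, Psma1, Psma6, Psmb1, Psmc1, Psmc2, Psmc6, Psmd6, Psmd14, Psmb8 and Psmb10. Leaving out each array in turn gave 0 to 3 higher and 1 to 12 lower members on day 10, 1 to 2 and 0 to 13 on day 15, 0 to 2 and 0 to 5 on day 20 and 0 to 1 and 0 to 2 on day 25. Pathway calls ran from 5 to 13, 4 to 10, 3 to 9 and 0 to 5 on these days. On day 25 the member median ran from -0.03 to 0.08, and its difference from all genes from -0.02 to 0.07, negative only without mouse 320 on day 0. Dim signal on the later arrays limits what small changes can be seen.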
